A study of Mus musculus with 28 samples.

Results

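Endothelial identity and blood-retina barrier genes were followed in 27 single cells picked from mouse retina. The list held 33 genes for endothelial junctions, receptors, surface markers, transcription factors and barrier transporters. It was fixed by gene name, with earlier results of these data known. Of the 33 genes 31 were measured, among 18194 genes with a probe set of their own. Where a gene had several probe sets with a single gene symbol, the highest of them in each cell was used. Ly6c1 shares its probe set with Ly6c2 and is given apart, and Ly6a was not analysed here.

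Each array held amplified cDNA of 1 cell that was picked by shape as a Müller glial cell (MGC), the radial glial cell that spans the retina. The adult WT group had 5 cells from C57/BL6 mice older than 25 weeks by the labels, while the study's methods give a younger lower limit of age, so their age relative to the other groups is not settled. The Rhod-ko retina, which lacks rhodopsin and loses rods slowly, gave 5 cells at 8 weeks and 5 at 25 weeks. The rd1 retina, in which a phosphodiesterase mutation carried on the FVB strain kills rods early, gave 5 cells at postnatal day 13 (P13) and 4 at 5 weeks, and 3 cells at P13 came from congenic FVB mice, which lack that mutation. So the adult WT cells differ from the rd1 cells in strain as well as in genotype, and the congenic FVB cells are the only controls of the P13 age. The labels name no animal for any cell. A condition is therefore 1 sample of several cells, no test between conditions was run, and every difference below is a description of these cells. On means here a MAS5 signal, a linear brightness, of at least 2000 in that cell.

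The vessels of the retina are lined by endothelial cells that close the gaps between them with tight junctions and that carry nutrients and drugs across with transporters, which are main parts of the inner blood-retina barrier. VEGF receptors, Tie receptors and ETS and SOX transcription factors are known for keeping endothelial identity. Norrin, made by MGCs, acts on endothelial frizzled-4 and through beta-catenin to set up and keep the barrier. Some of the listed genes, such as the glucose transporter Slc2a1, are used by many cell types.

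The listed genes split the cells sharply. In 5 cells, all at P13, between 23 and 29 of the 31 genes were on. These were all 3 congenic FVB cells, with 28 genes in A3, 26 in A4 and 26 in A5, and 2 of the 5 rd1 P13 cells, with 29 in A1 and 23 in B1. No other cell had more than 6 of the genes on, the highest being rd1 P13 cell A4 and Rhod-ko 8 weeks cells 2 and 8, and the median of the other 22 cells was 3. Over all 18194 genes the share on per cell was 16.2% (median of the 5 cells) and 13.5% (median of the others). By condition the median number of listed genes on was 2 for adult WT, 3 for both Rhod-ko ages, 26 for congenic FVB, 6 for rd1 at P13 and 3.5 for rd1 at 5 weeks. Cells with more than 6 listed genes on were 3 of 3 in congenic FVB (exact 95% interval 29.2 to 100%), 2 of 5 in rd1 at P13 (5.27 to 85.3%), 0 of 5 in adult WT and in each Rhod-ko group, which allows up to 52.2%, and 0 of 4 in rd1 at 5 weeks, which allows up to 60.2%. The intervals cover counting error only. They say nothing of the spread between animals, and the cut of 6 was taken from these same counts. The 5 cells were picked out by the number of listed genes on, so the counts that set them against the other cells describe that choice.

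**Figure D1:**
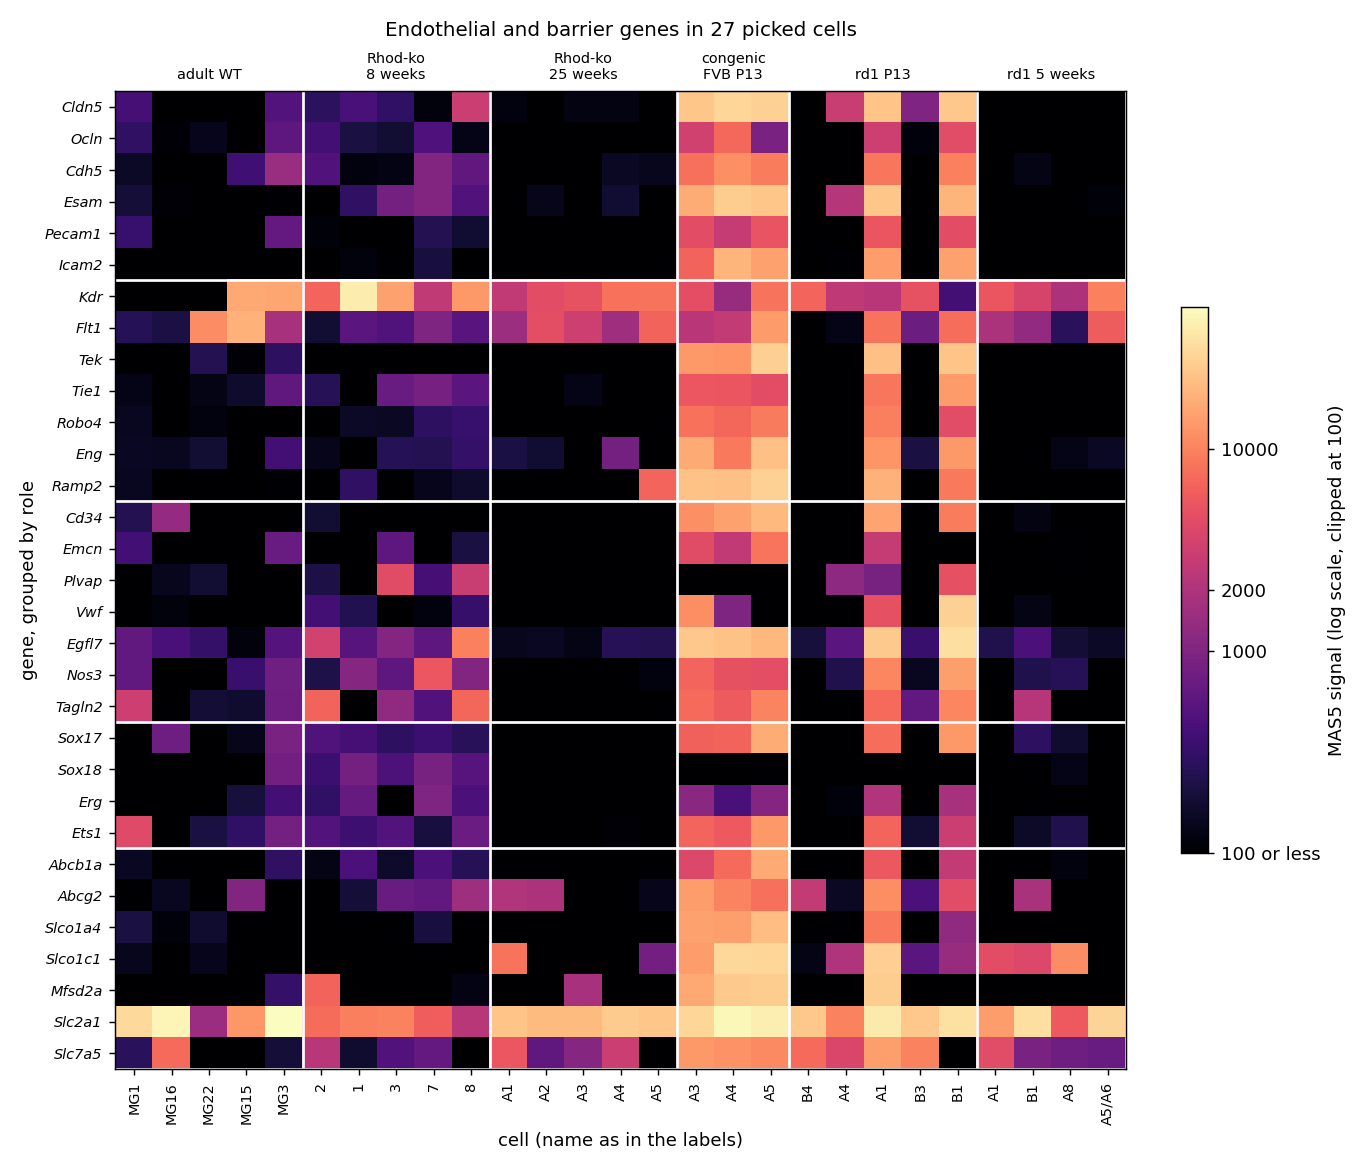
MAS5 signal (log colour scale, clipped at 100) of the 31 measured genes in rows, grouped by role from junctions at the top to transporters at the bottom, in 27 cells in columns, grouped by condition. The 3 congenic FVB columns and rd1 P13 columns A1 and B1 are bright in most rows, with 23 to 29 genes at or above 2000, while the other columns are dark except in the Kdr and Slc2a1 rows and in single entries.

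The 5 cells were labelled as MGCs like all others, and most MGC markers were off in them. Of 16 MGC markers 2 to 4 were on in the 5 cells, against 11 to 16 in the other 22. The summed signal of the 16 markers was 21221 to 42736 in the 5 cells and 185576 to 1237783 in the others. The 3 markers of highest median in the 5 cells were the glutamine-forming enzyme Glul, the chaperone Clu and the retinoid carrier Rlbp1. Glul was on in all 27 cells, at 5862, 22309.7, 23889, 23177 and 8252 in congenic FVB A3, A4 and A5 and rd1 P13 A1 and B1, and Clu was on in all 27 as well. Rlbp1 was on in 3 of the 5 cells and 19 of the 22 others. Slc1a3, Abca8a and Spon1, each on in all 22 other cells, were at most 124, 264 and 106 in the 5. Dkk3, also on in all 22, was on in 2 of the 5, congenic FVB A3 (2020) and rd1 A1 (4136). Of 14 pericyte and smooth muscle markers at most 1 was on in any of the 5 cells. Those on were Vtn in congenic FVB A4 (4129) and Acta2 in rd1 B1 (3716). Vtn was also on in 4 of the 22 other cells. Pdgfrb, Cspg4 and Rgs5 of that list were at most 166, 132 and 98.1 in the 5 cells. In the 22 other cells Pdgfrb was on in 9, Cspg4 in 0 and Rgs5 in 2, so low Pdgfrb also sets the 5 cells apart from many of the others. Pdgfrb, Cspg4 and Rgs5, as well as Slc1a3, Abca8a, Spon1 and Dkk3, were picked after their values were seen. At most 1 of 12 microglial markers and none of 7 blood cell markers were on in the 5 cells. Rod markers were on in all P13 cells, with 5 to 9 of 11 in the 5 cells and 7 to 8 in rd1 P13 cells B4, A4 and B3, those of highest median in the 5 cells being Sag, Gnat1 and Nrl. Their summed signal was 52279 to 179546 in the 5 cells and 68037 to 169382 in those 3 cells. The part of these marker signals in the results below was not tested. The arrays give no counts, so their number limits the precision. The rd1 5 weeks arrays named A5 and A6 had 98.9% of the 5554 probe sets compared within 2-fold of each other, against at most 46.0% in any other pair of arrays, so they were averaged and counted as 1 cell (A5/A6).

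**Figure D2:**
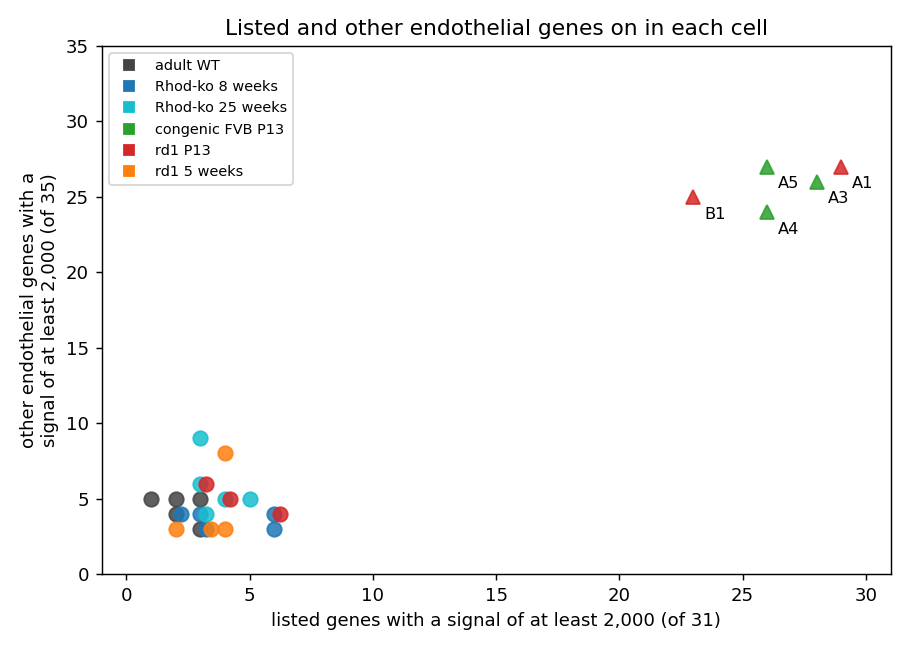
Number of the 31 listed genes at or above a signal of 2000 per cell (x axis) against the number of 35 other endothelial genes with such a signal (y axis), 1 point per cell, coloured by condition, with triangles for the 5 P13 cells and coinciding points moved slightly to the right. The 5 cells lie at 23 to 29 and 24 to 27 genes, and the other 22 cells at 1 to 6 and 3 to 9.

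Of the 31 genes, 20 were on in all 5 cells, against 4.91% of all genes, and 26 were on in at least 4 of them, against 8.99%. There were 10 genes that were on in all 5 cells and in no other cell, against 0.269% of all genes: Cdh5, Pecam1, Icam2, Tek, Tie1, Robo4, Eng, Cd34, Sox17 and Abcb1a. For 17 genes the lowest signal of the 5 cells lay above the highest of the other 22, against 0.627% of all genes. These were the same 10 with Cldn5, Ocln, Esam, Ramp2, Egfl7, Abcg2 and Slco1a4. For 0 of the 31 did all 5 cells lie below all others, against 0.231% of all genes. The remaining 14 genes overlapped with the other cells. Sox18 was on in no cell, Erg and Plvap were on in 1 of the 5, Vwf and Kdr in 3, and Kdr and Slc2a1 were on in most of the other cells too.

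The promoters of 6 listed genes are shown because the genes stand for both patterns. Egfl7, Eng, Tie1 and Cd34 set the 5 cells apart and hold a match to AGGAAG, a core sequence that ETS factors such as Ets1 and Erg are known to bind. Cldn5 sets the 5 cells apart and has no match, and Slc2a1 is on in nearly all cells and has no match. The sequences are the 250 bases before the annotated start in the RefSeq promoter table (build GRCm38.p6), 5′ to 3′ on the gene's strand, and capitals mark AGGAAG or its reverse complement CTTCCT. They lie at chr2:26580833-26581082 (plus strand), chr2:32646345-32646594 (plus strand), chr4:118489850-118490099 (minus strand), chr1:194938571-194938820 (plus strand), chr16:18776597-18776846 (plus strand) and chr4:119108495-119108744 (plus strand).
Egfl7: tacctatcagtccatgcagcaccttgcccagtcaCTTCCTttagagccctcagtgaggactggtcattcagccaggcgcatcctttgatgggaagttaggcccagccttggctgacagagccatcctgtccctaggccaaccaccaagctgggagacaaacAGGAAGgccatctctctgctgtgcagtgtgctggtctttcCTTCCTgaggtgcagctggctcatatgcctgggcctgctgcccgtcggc
Eng: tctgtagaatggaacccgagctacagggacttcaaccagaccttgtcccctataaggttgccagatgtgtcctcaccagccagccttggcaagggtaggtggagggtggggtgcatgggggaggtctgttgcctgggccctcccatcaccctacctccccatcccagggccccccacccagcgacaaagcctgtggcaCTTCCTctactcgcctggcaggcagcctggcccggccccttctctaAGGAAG
Tie1: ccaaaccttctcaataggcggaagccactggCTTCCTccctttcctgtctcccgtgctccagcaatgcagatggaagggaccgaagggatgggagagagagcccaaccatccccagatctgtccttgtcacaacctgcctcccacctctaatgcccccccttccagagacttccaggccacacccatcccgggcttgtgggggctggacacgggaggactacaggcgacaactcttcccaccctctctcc
Cd34: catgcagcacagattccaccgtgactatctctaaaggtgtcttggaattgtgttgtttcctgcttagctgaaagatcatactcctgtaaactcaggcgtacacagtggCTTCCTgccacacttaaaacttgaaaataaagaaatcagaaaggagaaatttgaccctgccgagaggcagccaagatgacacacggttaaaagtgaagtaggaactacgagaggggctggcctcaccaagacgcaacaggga
Cldn5: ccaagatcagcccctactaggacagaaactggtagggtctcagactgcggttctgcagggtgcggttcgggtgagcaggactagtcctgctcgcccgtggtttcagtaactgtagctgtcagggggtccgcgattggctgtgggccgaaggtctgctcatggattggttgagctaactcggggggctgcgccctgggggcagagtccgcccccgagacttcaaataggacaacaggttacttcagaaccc
Slc2a1: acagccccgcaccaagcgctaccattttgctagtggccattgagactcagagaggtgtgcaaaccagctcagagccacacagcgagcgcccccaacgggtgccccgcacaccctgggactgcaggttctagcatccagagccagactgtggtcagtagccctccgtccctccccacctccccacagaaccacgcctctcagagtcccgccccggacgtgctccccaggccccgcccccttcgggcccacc
A promoter window was found for 20 of the 33 genes and none was found for the other 13. AGGAAG, searched on both strands, was present in 11 of the 20 windows, those of Abcb1a, Abcg2, Cd34, Egfl7, Emcn, Eng, Flt1, Robo4, Slco1a4, Slco1c1 and Tie1, and in 29.2% of 27025 windows of all genes. The second ETS core CCGGAA was in 2 of the 20 windows and 12.2% of all. The SOX motif ACAATG was in 2 and 11%, the GATA motif AGATAA in 0 and 10.3%, and the TCF/LEF motif ATCAAAG in 1 (Egfl7) and 3.23%. Each was searched on both strands, and none of these motifs contains another. A match is a stretch of letters and not a shown binding site.

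In what follows the signals of the 5 cells are given in a fixed order, first congenic FVB A3, A4 and A5 and then rd1 P13 A1 and B1, and those of the other 22 cells as the lowest, the median and the highest.

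Junction and adhesion genes were on nearly throughout, with 5 or 6 of the 6 on in each of the 5 cells and at most 2 on in any other. The signals of Cldn5, the main claudin of blood-brain and blood-retina barrier tight junctions, were 23801, 29446, 27797, 23455 and 24580.4 in the 5 cells and 12.7, 119.8 and 3095 in the others. The 5 values were close together, and the lowest of them was 7.58 times the highest other cell, Rhod-ko 8 weeks cell 8. Esam, an adhesion molecule found at the same junctions, was at 16948, 26537, 23969, 24055 and 19077, against 5.5, 97.0 and 2194 in the others. In rd1 P13 cell A4 both Cldn5 (2982) and Esam (2194) were on. Cdh5 (VE-cadherin), which holds endothelial adherens junctions together, was at 7779, 11915, 9242, 8657 and 9691, against 14.7, 111 and 1478. Only 1 of the 2 Cdh5 probe sets carried this signal, as the other was at most 334 in the 5 cells. Pecam1 (CD31) was at 4586, 2828, 5127, 5256 and 4622, against 4.5, 35.5 and 647, and the leukocyte ligand Icam2 at 6562, 19051, 14716, 13853 and 15055, against 6.6, 12.9 and 202. The lowest Icam2 signal of the 5 cells was at least 6.56-fold above the others, all under 1000. Occludin (Ocln), a membrane protein of tight junctions in many epithelia as well, was at 3368, 7113, 914, 3216 and 4471, against 7.3, 98.6 and 587. It stayed under 2000 in congenic FVB cell A5, which was still above the highest of the other cells.

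Receptors divided into those found in the 5 cells and the VEGF receptors, which were shared with other cells. Tek (Tie2), the receptor of angiopoietins, was at 13332, 12696, 27249, 22266 and 23543 in the 5 cells, against 10.4, 32.7 and 288 in the other 22. The lowest of the 5 was at least 12.7-fold above every other cell, all of which were under the floor of 1000 against which this is taken. Its partner Tie1 was at 5399, 5335, 4542, 8613 and 13578, against 10.0, 71.6 and 854, and both rd1 cells lay above all 3 congenic FVB cells. Over all genes both rd1 cells lay outside the congenic FVB range for 20.1%. Robo4, an endothelial guidance receptor, was at 8057, 6956, 8980.0, 9398 and 4457, against 8.8, 64.0 and 332. Endoglin (Eng), a co-receptor of BMP ligands whose promoter is shown above, was at 16584, 8799, 22442, 12758 and 13302, against 38.1, 148 and 833. Ramp2, which turns the receptor Calcrl into one for adrenomedullin, was at 22906, 22457, 27616, 18156 and 8821, and among the others it was on in Rhod-ko 25 weeks cell A5 alone, at 6779, with a median of 29.9. A probe set shared by Ramp2 and Vps25, not used for these values, was on in 4 of the 5 cells and in 10 of the others.

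Kdr (VEGFR2), the main signalling receptor for VEGF, did not mark the 5 cells. It was on in 3 of them, at 4667, 1412, 8161, 2366 and 398, and in 18 of the 22 others, whose signals were 9.9, 5169 and 39780.0. Flt1 (VEGFR1), which binds VEGF with little signalling of its own, was on in all 5, at 2374, 2774, 13643, 8242 and 7690.2, and in 6 of the others, which ranged up to 18329.9 in adult WT cell MG15. So both VEGF receptors overlapped between the 5 cells and the rest, while the other 5 receptors did not.

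Among the surface, secreted and signalling genes, Cd34, a sialomucin of vessels and blood progenitors, was at 11736, 15207, 20041, 15303 and 9341 in the 5 cells and 3.8, 15.9 and 1367 in the others, without overlap. Egfl7, a secreted endothelial factor whose locus also holds miR-126, was at 24192, 22773, 19464, 25161 and 33193, against 118, 330.2 and 9842. Its highest other cell was Rhod-ko 8 weeks cell 8, followed by cell 2 of the same group at 3419. Nos3, the endothelial nitric oxide synthase, was at 6769, 4924, 4642, 10353 and 14362, and Rhod-ko 8 weeks cell 7 reached 5403, inside that range. Tagln2, an actin-binding protein that many cell types make, was at 7330.3, 5837, 10275, 7258 and 10555 and was on in 4 of the others, adult WT MG1, Rhod-ko 8 weeks cells 2 and 8 and rd1 5 weeks B1. In MG1 the Tagln2 signal came from a probe set that was at most 85.1 in the 5 cells. The 5 cells differed among themselves in Emcn, Vwf and Plvap. Endomucin (Emcn), known from capillaries and veins, was at 4401, 2684, 8336, 2827 and 9.6, so 4 cells had it on and rd1 B1 did not. Von Willebrand factor (Vwf), stored in endothelial granules, was at 11548, 979, 61.9, 4965 and 27701, with no other cell above 393. Plvap, which forms the diaphragms of leaky, fenestrated vessels and is low in mature barrier vessels, was at 11.4, 7.3, 71.2, 889 and 4827, on in rd1 B1 alone. It was also on in Rhod-ko 8 weeks cells 3 and 8, at 4342 and 2926. The probe set that Ly6c1 shares with Ly6c2 read 27127, 33821, 37879.6, 29543 and 28831 in the 5 cells, and rd1 5 weeks cell A1 was the only other cell at or above 2000, at 4421.

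The transcription factors did not move as one. Sox17, a SOX factor of arteries, was at 6387, 6585, 16965, 7662 and 13193, against 4.9, 71.8 and 929, without overlap. Sox18, its close relative, was off in every cell, with 4.4, 3.8, 104, 58.2 and 35.8 in the 5 cells and a highest signal of 873 in the others. Ets1 was at 6792, 5759.9, 13274, 6818 and 2999 and on in 1 other cell, adult WT MG1, at 4226. Only 2 of the 4 Ets1 probe sets were on in the 5 cells. The MG1 signal came from the dimmer of these 2. The brighter one was at most 335 in the other 22 cells and at least 2999 in the 5, without overlap. Erg, the ETS factor most tied to endothelium, was at 1185, 429.8, 1078, 2086 and 1812. It passed 2000 in rd1 A1 alone, and although its median of 1185 was above the 61.0 of the other cells, the ranges overlapped. The overlap came from 1 of its 2 probe sets, at most 139 in the 5 cells. That probe set reached 962 in Rhod-ko 8 weeks cell 7. The other Erg probe set was at 430 to 2086 in the 5 cells and at most 216 in the other 22. The 4 factors thus had 2 or 3 members on in each of the 5 cells.

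**Figure D3:**
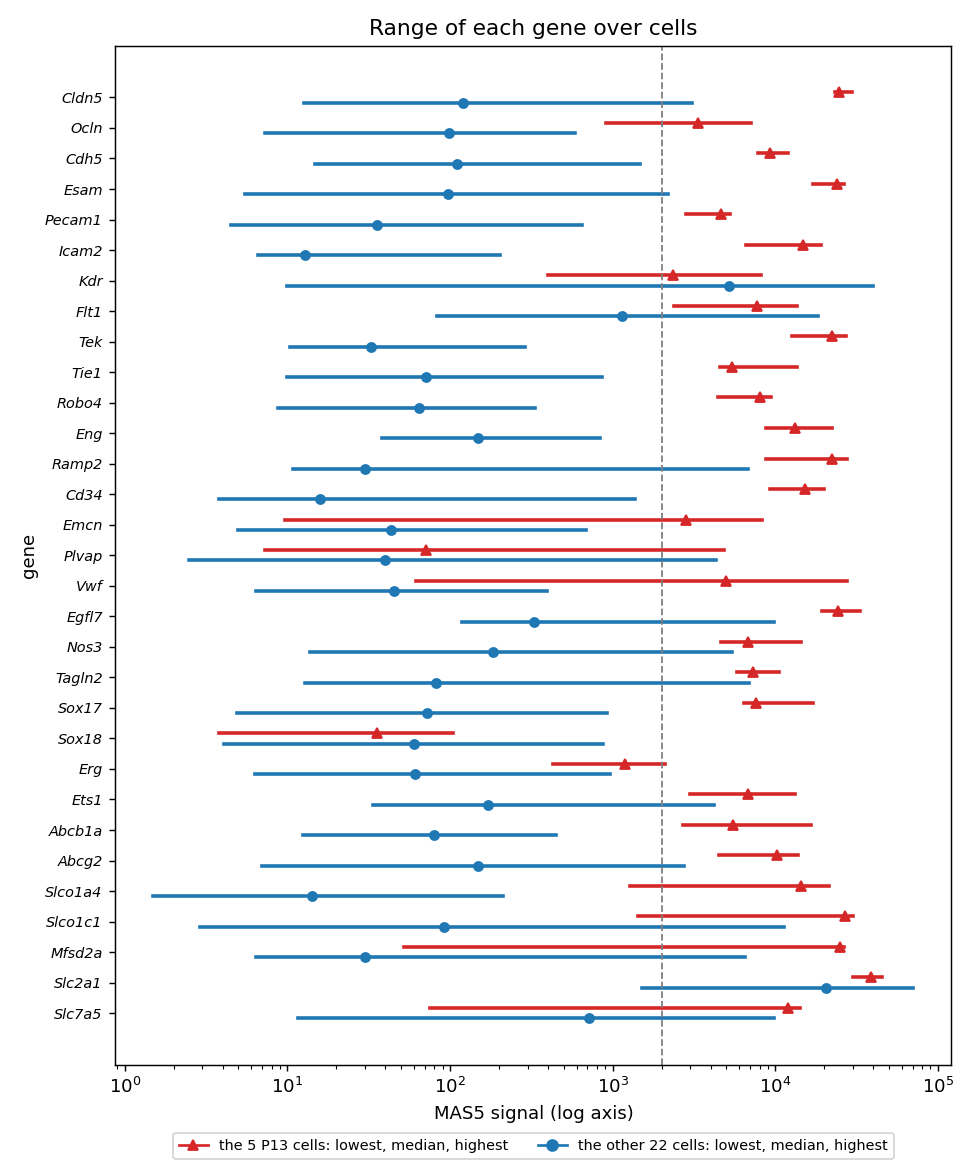
Lowest, median and highest MAS5 signal (log axis) of each of the 31 genes in the 5 P13 cells (triangles) and in the other 22 cells (circles), with a dashed line at 2000. For 17 genes, such as Tek and Icam2, the upper and lower ranges do not touch. Kdr, Flt1, Slc2a1 and Sox18 overlap along much of their range.

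The barrier transporters were on together in 4 of the 5 cells, with all 7 on in congenic FVB A3, A4 and A5 and in rd1 A1, and 3 on in rd1 B1. The drug exporter Abcb1a (P-glycoprotein) was at 4022, 7349, 16477, 5519 and 2721, against 12.4, 79.9 and 451, and the exporter Abcg2 at 13854, 10214, 7740.3, 11482 and 4519.6, against 7.0, 149 and 2744. Both were on in all 5 cells, at their lowest in rd1 B1. The organic anion carrier Slco1a4 was at 14759, 14425, 21511, 8876 and 1279, against 1.5, 14.1 and 211. Slco1c1, the thyroxine carrier of barrier endothelium and some glia, was at 13866, 30174, 29510.3, 26967 and 1426, and Mfsd2a, which imports lysophosphatidylcholine that carries docosahexaenoic acid, was at 16068, 25029, 26206, 26311 and 52.0. Both were on in 4 of the cells and off in rd1 B1, although Slco1c1 was still above the median of the other cells there. The amino acid carrier Slc7a5 (LAT1) showed the same step, at 13409, 12051, 10942, 14213 and 75.7, but it was also on in 8 of the other 22 cells. The glucose carrier Slc2a1 (GLUT1) was high in the 5 cells, at 30006, 45515, 40651, 38914 and 34113, and was on in 21 of the 22 others, at 1505, 20491 and 70702.

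Other endothelial genes, from a list of 35 that does not include the 31, were on in the same cells. This list and those below were chosen with earlier results of these data known, so they are no independent check. Each of the 5 cells had 24 to 27 of the 35 on and the other cells 3 to 9. Of the 35 genes, 25 were on in at least 4 of the 5 cells, against 8.99% of all genes, and for 12 the 5 cells lay above all others, against 0.627%. Sparc, Epas1, Itm2a and Tm4sf1 are named here as those of highest median in the 5 cells. The surface protein Tm4sf1 was at 11381, 26686, 31172, 21191 and 28115, with no other cell above 674. The membrane protein Itm2a was at 24700.1, 32468, 33871, 27868 and 12409.9 and was on in 8 of the others. Epas1 (HIF-2alpha), Sparc and Cav1, all known from glia too, were on in all 5 cells and in 22, 20 and 21 of the others. The receptor phosphatase Ptprb, a partner of Tek picked after its values were seen, was at 24130.3, 22491, 28895, 23070.3 and 28881, with no other cell above 640.2.

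Further barrier transporters and receptors followed the split between rd1 B1 and the other 4 cells. Of 18 measured, 14, 14 and 12 were on in congenic FVB A3, A4 and A5, 15 in rd1 A1 and 5 in rd1 B1, and 0 to 6 in the other 22 cells. For 9 of the 18 at least 4 of the 5 cells had the gene on, against 8.99% of all genes, and 1 did not overlap with the other cells, against 0.627%. The monocarboxylate carrier Slc16a1 (MCT1) was at 17867, 26388, 6072, 13985 and 23. Slc3a2, the heavy chain that pairs with Slc7a5, was at 15585, 21664, 24248, 12132 and 19599, so in rd1 B1 it was on while its partner was off, and it was on in 20 of the 22 other cells. The basigin gene Bsg was at 30773, 35194, 36345, 34414 and 15136, and the tricellular junction gene Lsr at 5496, 7882, 5879, 7345 and 10503. Spock2 was on in all 5, at 13169.8, 22924, 24288, 25378 and 3192, lowest in rd1 B1. The arginine carrier Slc7a1 (6547, 16188, 16576, 15312 and 205) and the organic anion carrier Slc22a8 (7427, 6333, 5891, 6808 and 65.2), picked after their values were seen, showed the same step.

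In the Norrin and Wnt pathway of the barrier, 4 of 13 genes were on in at least 4 of the 5 cells, against 8.99% of all genes, and 0 were free of overlap, against 0.627%. The receptors of Norrin, picked after their values were seen, were off in all 27 cells. Frizzled-4 (Fzd4) was at 1198, 30.6, 1736, 1287 and 596 in the 5 cells, with no other cell above 436, and its co-receptor Lrp5 was at most 13.0 in the 5. The Norrin co-receptor Tspan12 was at 3262, 2322, 3439, 2884 and 3091 and was on in 2 other cells, the highest at 12769 in adult WT MG1. The Wnt target Apcdd1 was at 16999, 33067, 20755, 31034 and 16727 and was on in 10 of the others, with a median of 789.6. Lef1, which acts with beta-catenin on DNA, was at 5069, 3502, 9209.8, 4839 and 1712 and on in 2 others. Beta-catenin itself (Ctnnb1) was on in all 5 and 19 others. The co-receptor Lrp6 was on in rd1 A1 among the 5 and in 7 others. Norrin (Ndp), named after its values were seen, was at most 55.9 in the 5 cells and was on in 6 of the others, up to 18087 in adult WT MG16.

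Ligands of the endothelial receptors were off in the 5 cells, with 0 of 10 on in each, against 16.2% of all genes (median). In the other 22 cells 0 to 2 were on, against 13.5% of all genes (median). Placental growth factor (Pgf) was on in 6 of them, Vegfb in 4 and adrenomedullin (Adm) in 4, with highest signals of 20385, 4603 and 9503. Vegfa was under 2000 in all 27 cells, at most 1295.

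The 5 cells were not alike in genes of vessel type. For the counts that follow, the share of all genes on per cell was 16.2% (median of the 5 cells) and 13.5% (median of the others). Of 9 arterial genes, 2 were on in congenic FVB A3, 6 in A4, 8 in A5, 7 in rd1 A1 and 8 in rd1 B1, against 0 to 2 in the other 22 cells. The connexin Gja4 was at 12.2, 17971, 9921, 19647 and 18772 and the secreted Sema3g at 20.6, 13196, 23727, 16954 and 23620.1, so both were off in congenic FVB A3 and on in the other 4 cells. Hey1, a Notch target, was at 20, 7238, 15469, 4964 and 14529, and the Notch ligand Jag1 at 3229, 6426, 5849.7, 9172 and 15726 and the receptor Notch4 at 2281, 1592, 10133, 10459.6 and 16571. Efnb2 was on in 4 of the 5 cells and Unc5b in 3. Gja5, a connexin of larger arteries, was on in rd1 B1 alone (4796), as was the smooth muscle actin Acta2 (3716). Gja5 was picked after its values were seen. Of 6 venous genes, 3 were on in congenic FVB A3, 2 in A4, 0 in A5, 2 in rd1 A1 and 1 in rd1 B1. Nr2f2 (at most 999.5) and Selp (at most 116) were off in all 5 cells. The apelin receptor Aplnr was at 17920.1, 19.0, 17.1, 126 and 113, Ephb4 at 2625, 534, 70.5, 2074 and 268, Nrp2 at 3782, 4615, 180.3, 1349.8 and 76.5 and Vcam1 at 81.2, 13661, 44.4, 2634 and 19846. Among the other cells Nr2f2 was on in 2, Nrp2 in 1 and Vcam1 in 10. Of 7 tip cell genes 0 to 2 were on in each of the 5 cells. The growth factor Pdgfb was at 3862, 1701, 12682, 6243 and 1654, the basement membrane protein Nid1 at 3793, 4302, 5200.2, 1734 and 1983 and Ramp3 at 845, 7100.1, 85.2, 825 and 6.3, while Esm1 was off in all 27 cells.

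The 5 cells thus showed several combinations. Congenic FVB A3 had arterial Gja4, Sema3g and Hey1 off and Aplnr, Vwf and the glutamine carrier Slc38a5 (14104, picked after its values were seen) on. Slc38a5 was also on in rd1 A1 (3038), and Vwf in rd1 A1 and B1. Congenic FVB A4 and A5 and rd1 A1 had the barrier transporters on, as congenic FVB A3 did, but together with Gja4, Sema3g and Hey1. The cell rd1 B1 had the arterial genes with Vwf, Plvap and Gja5, and had Slco1a4, Slco1c1, Mfsd2a, Slc7a5, Slc16a1, Slc7a1 and Slc22a8 off. With 1 array per cell, differences between single cells and measurement error cannot be told apart.

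**Figure D4:**
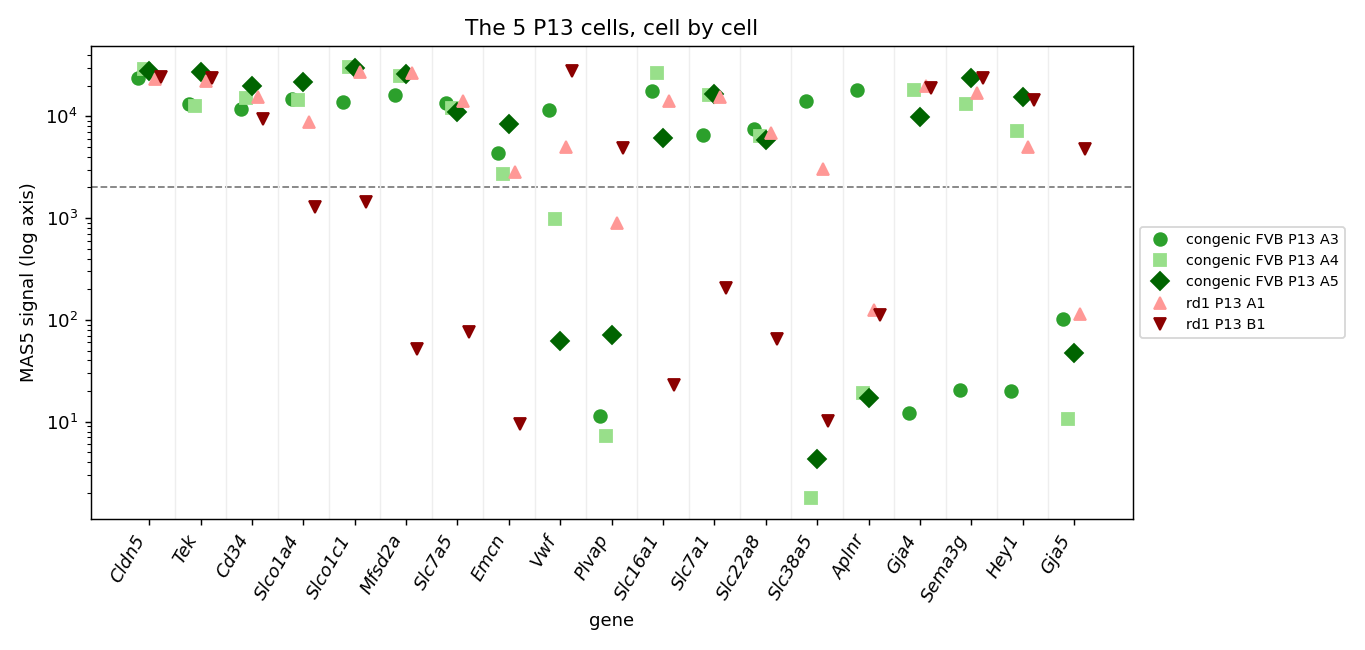
MAS5 signal (log axis) of 19 genes in each of the 5 P13 cells, 1 symbol per cell, with a dashed line at 2000. Cldn5, Tek and Cd34 are close together in all 5 cells, the transporters Slco1a4 to Slc7a5 and Slc16a1 to Slc22a8 are low in rd1 B1, and Gja4, Sema3g and Hey1 are low in congenic FVB A3.

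In the 22 other cells 16 of the 31 genes were off throughout, against 45.7% of all genes. A further 9 were on in 1 or 2 cells, and 6 were on in 3 or more: Kdr, Flt1, Tagln2, Slco1c1, Slc2a1 and Slc7a5. Kdr and Slc2a1 were on in at least 11 of the 22, against 8.71% of all genes. The counts off throughout and on in at least 11 cells were both near the shares of all genes. Single entries were spread over conditions. Rhod-ko 8 weeks cell 8 had Cldn5, Plvap, Egfl7 and Tagln2 on, cell 2 had Egfl7, Tagln2 and Mfsd2a (6525) on, and rd1 P13 cell A4 had Cldn5, Esam and Slco1c1 (2052) on. None of these cells had Cdh5, Pecam1, Tek or Cd34 above 608.

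Kdr was the one listed gene past 2-fold in all 3 comparisons with adult WT. In adult WT it was off in MG1, MG16 and MG22 (9.9, 33.5 and 65.4) and on in MG15 and MG3 (16163 and 15678). The 8-week Rhod-ko signals were 6779, 39780.0, 14689, 2621 and 13493, and the 25-week ones 2693, 4636, 5044, 7923 and 8257. In rd1 at 5 weeks they were 5257, 3689, 1961 and 9701 in A1, B1, A8 and the averaged pair A5/A6. All 10 Rhod-ko cells had Kdr on, and the ranges overlapped with adult WT because of its 2 high cells. Group medians of log2 signal, floored at 1000, were compared, and a difference of at least 1 (2-fold) was counted. Where a group median lies under the floor the value bounds how far the medians lie apart, and says nothing of the means. The median of Kdr was above that of adult WT by at least 3.75 in the 8-week and 2.33 in the 25-week Rhod-ko cells and by at least 2.14 in rd1 at 5 weeks. With means of the floored log2 signals in place of medians the differences were 1.82, 0.80 and 0.53, so only the first was past 2-fold. These values rest on the 3 low adult WT cells. Without MG1, MG16 or MG22 the difference was 1.77, 0.35 and 0.15.

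For Flt1 the floor limited what could be seen. Its signals were 255, 215, 11225, 18329.9 and 1821 in adult WT, 183, 553, 484, 960.4 and 535 in the 8-week and 1529, 4739, 3172, 1632 and 6532 in the 25-week Rhod-ko cells, and 1922, 1319, 273 and 5922 in rd1 at 5 weeks. All 5 cells of Rhod-ko at 8 weeks were under 1000, while adult WT MG22 and MG15 were the highest. The difference of the 8-week Rhod-ko from the adult WT median was -0.86 with the floor at 1000, a bound, and -1.77 with the floor at 500, where Flt1 is counted as lower. So all 5 cells of Rhod-ko at 8 weeks had Kdr on and Flt1 off, while adult WT MG22 had Flt1 on and Kdr off. In MG22 only 1 of the 4 Flt1 probe sets carried this signal, and the others were at most 657. Cells 7 and 8 of Rhod-ko at 8 weeks also had 8 and 7 of 11 rod markers and 5 and 1 of 12 microglial markers on, and without both of them the counts below did not change.

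Slc2a1 and Slco1c1 were past 2-fold in 1 comparison each. Slc2a1 was at 31392, 44773, 1505, 13162 and 70702 in adult WT (MG1, MG16, MG22, MG15 and MG3) and at 7537, 9587, 10029, 6101 and 2307 in Rhod-ko at 8 weeks, a difference of -2.06 between medians. The 8-week Rhod-ko arrays also differed in measures of RNA quality. Their ratio of 3′ to 5′ Gapdh signal was 3.95 to 18.2 (median 7.49), against 0.554 to 4.06 (median 0.787) in adult WT, and the 100 brightest probe sets held 22.2 to 35.7% of the signal (median 30.7%), against 13.4 to 24.6% (median 14.2%). The part of this in the Kdr, Flt1 and Slc2a1 differences was not tested. The ranges overlapped through MG22, the one cell of all 27 with Slc2a1 under 2000. At 25 weeks the Rhod-ko cells were close together, at 23073, 20548, 20434, 25399 and 23857. Slco1c1 was off in all adult WT and all Rhod-ko 8 weeks cells and on in 3 of 4 rd1 5 weeks cells, at 4548, 4035, 11324 and 6.2, a difference of at least 2.10. The cell without it was the averaged pair A5/A6, at 6.2. Of the 25-week Rhod-ko cells only A1 had it on, at 8265. Slc7a5 was on in 1 adult WT cell, 1 Rhod-ko cell at 8 weeks, 2 at 25 weeks and 1 rd1 cell at 5 weeks. It was also on in rd1 P13 cells B4, A4 and B3, at 7235, 3851 and 9849.6.

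**Figure D5:**
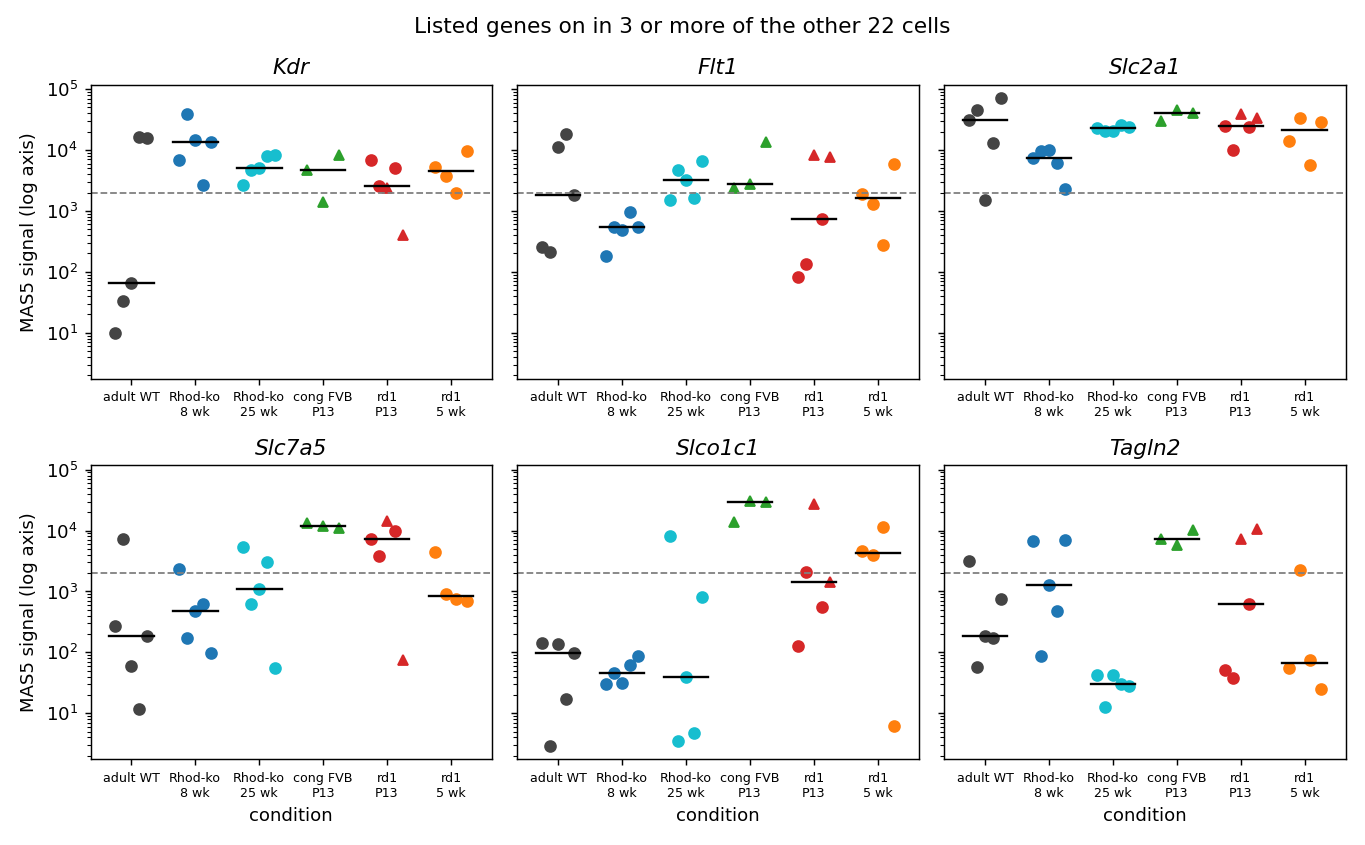
MAS5 signal (log axis) of the 6 listed genes that were on in 3 or more of the other 22 cells, by condition, 1 point per cell with triangles for the 5 P13 cells, bars at group medians and a dashed line at 2000. Kdr is off in 3 adult WT cells and on in all Rhod-ko cells, Slc2a1 is on in 26 of 27 cells, and Slco1c1 is on in 3 rd1 5 weeks cells.

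Set out by comparison, few of the 31 genes passed 2-fold outside P13. Rhod-ko at 8 weeks against adult WT gave 1 higher (Kdr) and 1 lower (Slc2a1), where 6.17% of all genes were higher and 5.12% lower. Rhod-ko at 25 weeks gave 1 higher (Kdr) and 0 lower, with 7.9% and 3.7% of all genes. For rd1 at 5 weeks against adult WT it was 2 higher (Kdr and Slco1c1) and 0 lower, with 6.35% and 4.25%. These 3 comparisons share the adult WT cells. In them both medians of 25, 27 and 27 of the 31 genes were under the floor, so most of the list could not show a difference there.

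At P13 the comparison of rd1 with congenic FVB gave 0 higher and 24 lower of the 31 genes, where 4.79% of all genes were higher and 6.41% lower. Over the list the median of these differences was -2.76, and over all genes it was 0.0. The 24 lower genes included Cldn5 (-3.22), Esam (-3.45), Slco1c1 (-4.37) and Abcg2 (-1.90), which are measured differences, and bounds on the medians, at -3.88 or lower for Icam2, -3.74 for Tek, -4.51 for Egfl7 and -4.65 for Mfsd2a. These are differences of medians, and with means of the floored log2 signals they were -2.07 for Icam2, -2.25 for Tek, -2.52 for Egfl7 and -3.51 for Mfsd2a. Kdr, Plvap, Vwf, Sox18, Erg, Slc2a1 and Slc7a5 did not reach 2-fold. The rd1 median is that of a group in which 2 cells had the genes on and 3 did not. For 25 of the 31 genes both A1 and B1 lay above B4, A4 and B3, against 10.7% of all genes. A1 and B1 were picked by the number of these genes on, so this count describes that choice. Tek, for example, was at 22266 in A1 and 23543 in B1 and at 13.8, 17.6 and 51.7 in B4, A4 and B3.

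With B4, A4 and B3 alone, 0 genes were higher and 24 lower than in congenic FVB, where 7.11% and 7.24% of all genes were. These cells were set apart by the same genes, so this count describes that choice too. With A1 and B1 alone, 5 genes were higher (Flt1, Tie1, Plvap, Vwf and Nos3) and 6 lower (Kdr, Emcn, Slco1a4, Slco1c1, Mfsd2a and Slc7a5), where 5.5% and 3.9% of all genes were. For these 2 cells the difference from congenic FVB was -0.21 for Cldn5, -0.01 for Cdh5, -0.03 for Icam2 and -0.35 for Eng. Tie1, Plvap, Egfl7, Nos3 and Erg were above all 3 congenic FVB cells in both A1 and B1, and Slco1a4 and Ramp2 below all 3. Over all genes 20.1% lay outside that range in one of the directions. The share among the listed genes was close to this, so these genes do not set the list apart. Slco1c1, Mfsd2a and Slc7a5 were low in B1 alone. In A1 they were at 26967, 26311 and 14213, inside or above the range of the congenic FVB cells.

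Leaving out single cells changed some of the 24 calls. Without rd1 B4, A4 or B3 the count was 20, 20 and 21, and Ocln, Tie1 and Nos3 came to -0.91, -0.86 and -0.61 and Flt1 to 0.0. Without congenic FVB A4 Ocln came to -0.88. Most other differences of this comparison shrank when 1 of these 3 rd1 cells was left out, as the median then lay between cells with and without the genes. Cldn5 came down to -1.73, Icam2 to -1.98, Tek to -1.50 and Egfl7 to -2.18, all still past 2-fold.

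Against all 22 other cells the 5 P13 cells were higher in 26 genes and lower in 1, where 8.41% of all genes were higher and 2.77% lower. The median difference over the list was 2.94, which is mostly made of bounds, and it was largest for Slco1c1 (at least 4.75), Mfsd2a (at least 4.65), Cldn5 (at least 4.62) and Egfl7 (at least 4.60). With means of the floored log2 signals these 4 were 3.24, 3.45, 4.54 and 4.38. The lower gene was Kdr (-1.13), which came to -0.64 without congenic FVB A4 or rd1 B1. Set against rd1 P13 cells B4, A4 and B3 alone, which are of the same age and carry rod markers as the 5 cells do, 25 genes were higher and 1 was lower, where 6.35% of all genes were higher and 6.95% lower. For 24 of the 31 the 5 cells then lay above all 3, against 3.62% of all genes. The 5 cells were picked by these genes, so the counts of this paragraph describe that choice.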

How the data were processed

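Single cells were picked under the microscope from dissociated mouse retina by shape, and their RNA was reverse transcribed and amplified by 35 PCR cycles before hybridisation to 430 2.0 arrays, 1 cell per array (28 arrays). The deposited values are linear MAS5 signal intensity per probe set, which the authors' software scaled so that the 2% trimmed mean of every array is 500.0. Amplification from 1 cell makes single low or missing values uncertain. Genes were named from the platform annotation. Of 45101 probe sets, 34958 had 1 symbol, 932 had several and 9211 had none, and the highest single-symbol probe set per cell gave 18194 genes. A gene was on at a signal of at least 2000. Conditions were compared by the difference between their median log2 signals, with values under 1000 set to 1000, and differences of at least 1 (2-fold) were counted. This is a rule of size and not a test, since no animal is named and each condition is 1 sample of cells. Exact binomial intervals used SciPy 1.17.1, tables pandas 2.3.3 and NumPy 2.4.6 under Python 3.11.15, and the scripts were tested on simulated data. Promoters were read from the RefSeq table (GRCm38.p6). The named genes were all listed genes, and from each other list up to 4 genes on in the greatest number of the 5 P13 cells and up to 3 on in the greatest number of other cells (ties by median), with the 3 marker genes of highest median per cell type and the 10 genes outside the lists with the largest ratio of the lowest of the 5 cells to the highest of the others. Members and lists were chosen with earlier results of these data known. Alternatives were the on threshold, the floor, group means, the fold, the choice of probe set, quantile and percentile scaling, other control cells and leaving out each cell.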

Additional observations from a re-analysis of the deposited data

Results flagged for a closer look

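In groups of 4 or 5 cells, a cell was singled out where its gap to the nearest other cell passed Dixon's 95% limit on the floored log2 scale and the group's range was at least 2-fold. This held for 16 of 160 groups of values. Chance gives about 1 in 20 for values without a floor. Here a single cell above the floor is always singled out, so that rate does not apply and the values only name lone high cells. In adult WT, MG1 stood apart in Tagln2 (3147.7) and Ets1 (4225.5), and MG16 in Slc7a5 (7248.3). Both MG1 values came from a single probe set of the gene. In MG1 the probe sets that were brightest in the 5 P13 cells were at 1229 for Tagln2 and 335 for Ets1. In Rhod-ko at 8 weeks the cells were cell 8 in Cldn5 (3095.3), cell 7 in Nos3 (5403.2) and cell 2 in Mfsd2a (6525.0) and Slc7a5 (2331.8). In Rhod-ko at 25 weeks they were A5 in Ramp2 (6778.5) and A1 in Slco1c1 (8264.6). In rd1 at P13, A1 was far above the other 4 cells in the barrier genes Slco1a4 (8875.8), Slco1c1 (26967.1) and Mfsd2a (26311.1) and in Emcn (2827.1), while B1, in which those genes were off, was the high cell for Plvap (4826.8). In rd1 at 5 weeks B1 stood apart in Tagln2 (2284.0) and A1 in Slc7a5 (4478.1).

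The probe set that Ly6c1 shares with Ly6c2, which gives no value for a listed gene, was also high in the 5 P13 cells, the lowest of them at 27127.0.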

How the results depend on the processing

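Of 2120 alternative values of the 56 differences past 2-fold, 2018 moved by less than the spread between cells, 90 moved further and 12 turned. Many of the 2018 could not move, such as those with a 4-fold rule or without a cell outside the comparison. The spread is that of the first group, which for rd1 at P13 mixes cells with the genes on and off. In 53 of the 2120 the difference fell under 2-fold, 17 of them with A1 and B1 as the only rd1 P13 cells and 21 without a single cell. Of these 53, 26 were still counted among the 2018. A floor of 2000 left 22 genes lower in rd1 at P13 (Ocln -0.75 and Flt1 -0.47) and 24 higher in the 5 P13 cells (Ocln 0.75 and Emcn 0.50). Group means left 21 lower in rd1 at P13 (Ocln -0.76, Flt1 -0.97, Tie1 -0.97 and Nos3 -0.98). The gap between the 5 P13 cells and the others in the number of listed genes on was present at every threshold. At a threshold of 500 the highest other cell had 15 genes on, and the medians were 4 (adult WT), 11 (8-week Rhod-ko) and 5 (25-week Rhod-ko). At 1000 the Rhod-ko 8 weeks median was 5, and at 5000 the medians were 3 in rd1 at P13 and 2 at 5 weeks. At 10000 the lowest of the 5 cells had 12 genes on and the highest other cell 3, with medians of 14 in congenic FVB and 1 in each other condition. With a floor of 500 Rhod-ko at 8 weeks had 4 genes higher (Kdr, Egfl7, Nos3 and Tagln2) and 2 lower (Flt1 and Slc2a1), and at 25 weeks 2 higher. With group means it was 2 higher and 2 lower at 8 weeks, 0 higher at 25 weeks and 1 higher in rd1 at 5 weeks, and 0 genes were lower in the 5 P13 cells, as was so at 4-fold. Kdr then differed by 0.80 in Rhod-ko at 25 weeks and 0.53 in rd1 at 5 weeks. Quantile normalization gave 2 lower in Rhod-ko at 8 weeks. Equal 90th percentiles gave a median of 3 genes on in rd1 at P13, 2 lower in the 8-week and 1 in the 25-week Rhod-ko cells, and 1 lower in the rd1 cells of 5 weeks.

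Against congenic FVB instead of adult WT, rd1 at 5 weeks had 0 higher and 25 lower, with Kdr at -0.08 and Slco1c1 at -2.78. The share of all genes was not taken for this comparison. The congenic FVB cells are all among those picked by the listed genes, and their age differs from that of rd1 at 5 weeks. With A1 and B1 as the only rd1 P13 cells, 5 genes were higher and 6 lower than in congenic FVB, and Ocln (0.17), Pecam1 (0.10), Flt1 (1.52), Tek (0.78), Tie1 (1.02), Egfl7 (0.34), Nos3 (1.31), Tagln2 (0.26) and Sox17 (0.61) turned. Within rd1 at P13, A1 and B1 against B4, A4 and B3 gave 25 higher and 1 lower, and Slc7a5 turned (-0.94). The share of all genes was not taken here either, and A1 and B1 were picked by the listed genes. This alternative and the one with the other P13 cells as reference were chosen after seeing the data. The cause of these changes was not tested, beyond the choice of cells itself. The 17 genes without overlap became 19 with 1 probe set per gene, 18 with quantile normalization and 15 with equal 90th percentiles.

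Leaving out single cells gave 23 to 26 genes on in the lowest of the 5 cells and always 6 in the highest other cell, and medians of 2 to 2.5 (adult WT), 3 to 4.5 (8-week Rhod-ko), 3 to 3.5 (25-week Rhod-ko), 26 to 27 in congenic FVB, 5 to 14.5 in rd1 at P13 (13.5 without A4 and 14.5 without B4 or B3) and 3 to 4 in rd1 at 5 weeks. Genes without overlap were 17 to 22. Counts of higher and lower genes were 1 to 2 and 1 to 2 in Rhod-ko at 8 weeks, 0 to 2 and 0 to 0 at 25 weeks, 0 to 1 and 20 to 25 in rd1 at P13, 1 to 2 and 0 to 1 in rd1 at 5 weeks, and 26 to 26 and 0 to 1 in the 5 P13 cells. The Rhod-ko and rd1 5 weeks counts, at most 2 genes, depend on single adult WT cells, and without MG1 or MG16 Rhod-ko at 25 weeks had 0 higher.

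No paired analysis was possible because cell names are not shared replicate numbers and no test was run. Depth is unknown for arrays, no difference can be seen for genes under the floor in both groups, and the 5 P13 cells come from an unknown number of animals.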

Other observations

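Outside the lists, the 10 genes whose lowest signal in the 5 P13 cells lay furthest above the highest of the other 22 were Srgn, AU021092, Anxa3, Emp1, Ecscr, Cavin2, Arhgap29, Afap1l2, Foxc1 and Cthrc1, all with every other cell under 1000. Taken against 1000, the lowest of the 5 cells was at least 15.2-fold higher for Srgn and at least 2.93-fold for Foxc1. Srgn encodes the granule proteoglycan serglycin, Ecscr an endothelial cell surface protein, Cavin2 a coat protein of caveolae and Foxc1 a forkhead transcription factor.
Srgn was at 15178, 31313, 29433, 24016 and 23742 in congenic FVB A3, A4 and A5 and rd1 A1 and B1, with no other cell above 278. Ecscr was at 7889.8, 15565, 11859, 9580.1 and 20051, with no other cell above 761, and Foxc1 at 4042, 2934, 6039, 4505 and 7139, with no other cell above 371. All 5 cells were on for each of these 3 genes. They were chosen by these ratios, so their values describe the choice.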
